A study of Mus musculus with 4 samples.

Results

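The Hoxb cluster on mouse chromosome 11 holds the 9 genes Hoxb9, Hoxb8, Hoxb7, Hoxb6, Hoxb5, Hoxb3, Hoxb4, Hoxb2 and Hoxb1, and the chromatin accessibility peaks of these genes were described in HSCs with and without Cpt1a. This listing follows the first base of each annotated span. The long Hoxb3 span (chr11:96307101-96347930) encloses that of Hoxb4 (chr11:96318267-96321638), so Hoxb4 regions also lie in the Hoxb3 span. The genes were chosen as the members of this cluster, 9 of the 49550 genes in the RefSeq gene table used, by their names and not by their values, although earlier results of these data were known when the cluster was picked. Their peaks were those on chr11 (mm10) within 5000 bp of an annotated gene span, which together form windows of 105.2 kb (chr11:96266330-96359020 and chr11:96360746-96373254). Merging peaks that overlapped by at least 1 bp gave 61 regions in these windows, of 337776 regions on the autosomes and X.

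The study profiled sorted bone marrow cells by ATAC-Seq, in which a transposase cuts accessible DNA so that stretches with many cuts, called peaks, mark open chromatin. There were 2 control libraries (control 1 and control 2) and 2 Cpt1a-KO libraries (KO 1 and KO 2). Controls carried Cpt1a flanked by loxP sites (Cpt1a fl/fl) in the study's methods and are labelled WT, and KO animals carried Cpt1a fl/fl with Vav1-Cre, which deletes the gene in all hematopoietic cells and not in HSCs alone. The mice were adult C57BL/6 animals of both sexes, their cells were frozen after sorting, and the labels call the cells long-term HSCs where the study's text calls them HSPCs. The number of animals behind each library is not stated in the sources used here, so the spread between libraries may be technical.

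Hox genes encode homeodomain transcription factors that set position along the body axis in the embryo. The genes of a cluster lie in a row, are transcribed in 1 direction and are used in an order that follows their order on the chromosome, with Hoxb1 at the end that responds first to retinoic acid and Hoxb9 at the other end. In the blood system, Hoxb4 is known for expanding HSCs when it is overexpressed and Hoxb5 is used as a marker of long-term HSCs. Mir10a, a microRNA gene between Hoxb5 and Hoxb4, and the antisense transcripts Hoxb5os and Hoxb3os lie within the cluster.

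The 250 bases before the annotated start are given for the 3 genes that matched the RefSeq promoter table (GRCm38.p6, the assembly of mm10, plus strand, 5′ to 3′). Letters are in capitals where 1 of 5 searched motifs matched on either strand. The motifs were CCAAT, known from many promoters, the E-box letters CACGTG, TGATNNAT, a motif of Hox proteins bound with a cofactor, TATAAA, the core of promoters that bind TBP, and AGGTCA, a half-site of nuclear receptors. Both strands were searched, and no matches overlapped within these 3 promoters. Hoxb8 and Hoxb1 held CCAAT and TGATNNAT, and Hoxb4 held AGGTCA.
Hoxb8 (chr11:96281655-96281904): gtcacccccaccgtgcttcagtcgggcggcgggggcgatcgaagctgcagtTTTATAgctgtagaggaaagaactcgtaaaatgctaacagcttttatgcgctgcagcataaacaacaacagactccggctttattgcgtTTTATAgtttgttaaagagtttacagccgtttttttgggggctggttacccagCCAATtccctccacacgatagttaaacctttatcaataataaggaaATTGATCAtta
Hoxb4 (chr11:96318017-96318266): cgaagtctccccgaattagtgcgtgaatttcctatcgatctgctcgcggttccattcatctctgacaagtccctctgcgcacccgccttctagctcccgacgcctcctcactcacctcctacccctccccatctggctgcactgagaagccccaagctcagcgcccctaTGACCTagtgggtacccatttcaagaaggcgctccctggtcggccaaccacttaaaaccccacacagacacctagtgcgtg
Hoxb1 (chr11:96365508-96365757): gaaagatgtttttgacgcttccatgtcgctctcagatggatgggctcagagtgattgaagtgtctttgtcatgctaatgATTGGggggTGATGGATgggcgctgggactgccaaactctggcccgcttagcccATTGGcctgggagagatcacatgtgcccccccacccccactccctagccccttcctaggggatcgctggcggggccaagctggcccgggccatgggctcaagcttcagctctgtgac

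Counted back from the start, Hoxb8 had TATAAA at positions -199 and -110, CCAAT at -57 and TGATNNAT at -11. Hoxb4 had AGGTCA at -81. Hoxb1 had CCAAT at -171 and -117 and TGATNNAT at -162. Of the 32851 promoters in the table, 33.8% held CCAAT, 7.68% TGATNNAT, 12.4% TATAAA, 14.0% AGGTCA and 6.02% CACGTG, so each match alone is common and is given only as a description. The GC content was 44.4% for Hoxb8, 58.0% for Hoxb4 and 59.2% for Hoxb1, beside a median of 52.4% over the table. The ratio of observed to expected CpG was 0.974, 0.760 and 0.320, respectively, beside a median of 0.373, so the Hoxb8 and Hoxb4 stretches lay above the median and the Hoxb1 stretch below it.

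In most libraries these stretches lay outside the peaks. A control 2 peak covered 136 bases of the Hoxb4 stretch, a KO 1 peak covered 204 bases of the Hoxb1 stretch, and in each case the other 3 libraries had no peak there. The Hoxb8 stretch lay under no peak in any library. Its start in the promoter table (96281905) is inside the gene span of the gene table, which opens at 96279401, and the positions given below are relative to the gene spans.

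The 4 peak lists give each summit's position, its fold over background, its −log10 p and its −log10 q. They hold no reads, and the depth of each library is unknown. Library lists held 240940 to 277594 summits, and their peaks covered 52.9 and 48.9 Mb in the controls and 42.6 and 44.4 Mb in KO. Peaks therefore covered less of the genome in both KO libraries, which bears on every measure of width below. Within 5000 bp of Cpt1a, the targeted gene, the controls had 36 and 38 summits, the KO libraries had 30 and 29, and this does not check the deletion because peaks do not resolve an exon. Each of the 10 HSC marker genes (such as Procr, Mecom and Hlf) had a peak in every library. Markers of other cells had them too, since 1 of the 5 T cell genes (Cd8a) had no peak in control 2 and KO 2, 1 of the 4 erythroid genes (Gata1) had none in KO 2, and all B cell, neutrophil, stromal and endothelial markers had peaks in every library. Peaks covered 3.28 to 4.57% of the HSC marker windows, 4.16 to 5.75% of the T cell windows, 5.36 to 7.22% of the B cell windows, 6.40 to 9.45% of the neutrophil windows, 5.03 to 6.83% of the erythroid windows, 4.44 to 5.77% of the stromal windows and 2.33 to 3.41% of the endothelial windows. These pooled shares do not rank the lists, since the windows total 1152 kb for HSC and 70.8 to 238 kb for the others. By gene, the median share was 4.86 to 7.55% for HSC, 4.23 to 6.72% for T cell and 7.05 to 9.86% for B cell markers. It was 5.53 to 9.18% for neutrophil, 6.73 to 7.96% for erythroid, 4.84 to 6.55% for stromal and 2.46 to 4.25% for endothelial markers. The part of these cell types in the Hoxb values was not tested.

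**Figure D1:**
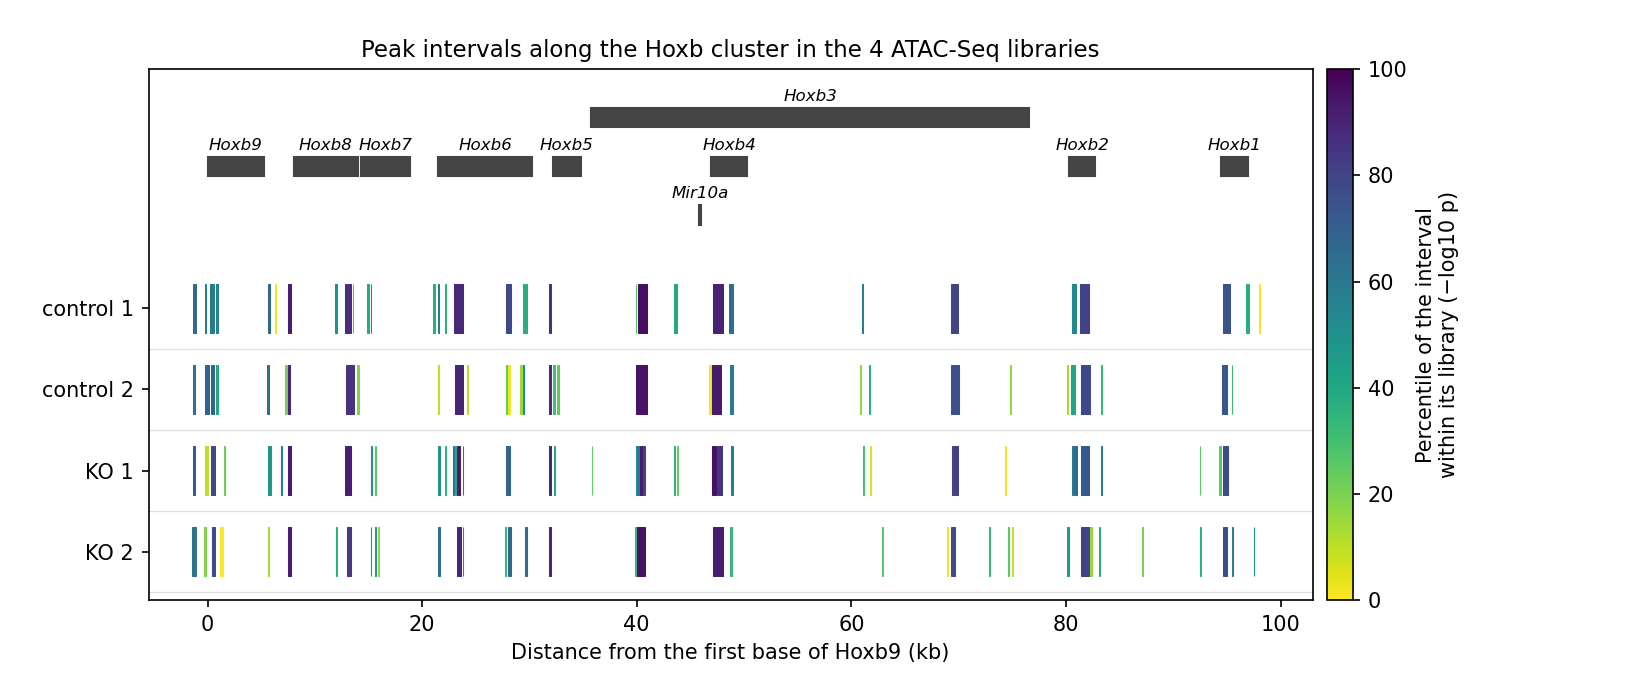
Peak intervals in the 4 libraries (rows) along the Hoxb cluster, with the distance from the first base of Hoxb9 in kb on the x axis and gene spans drawn above. Colors give the percentile of each interval within its library by −log10 p, and the darkest intervals recur in all 4 rows while most light ones appear in 1 row.

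Peaks were spread over the whole cluster, and the strong ones were shared. Of the 61 regions, 16 held a peak in all 4 libraries, 3 in 3 libraries, 8 in 1 control and 1 KO library, 1 in both controls only, 2 in both KO libraries only and 31 in a single library. Among the 30 Hoxb regions held by at least 2 libraries, 53.3% were held by all 4, beside 58.4% of the 137553 such regions in the genome, so sharing in the cluster was near the background. Single-library regions numbered 5 and 9 in the controls and 7 and 10 in KO. They made up 50.8% of the 61 regions, beside 59.3% of all regions in the genome. Regions in 1 control and 1 KO library made up 13.1%, beside 6.59%, and those in 3 libraries 4.92%, beside 6.49%.

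Presence went with strength. Strength was expressed as a percentile, the rank of an interval's highest −log10 p among all intervals of its library, which makes libraries comparable only as ranks. In the regions held by all 4 libraries the percentile ran from 9.79 to 96.2 with a median of 77.5, the fold had a median of 6.06, and 49 of 64 values had a −log10 q of at least 5. In single-library regions the median percentile was 21.1 and the median fold 2.47. No value in a region held by fewer than 4 libraries reached a −log10 q of 5.

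Regions of the cluster, shared or not, mostly overlapped a gene span, and few overlapped an annotated start. Of the 16 shared regions, 12 overlapped a Hoxb gene span, 7 had their centre within 1 kb of a start and 1, at Hoxb9, overlapped a start. Of the 45 regions held by fewer than 4 libraries, these numbers were 34, 14 and 2. Gene spans fill most of the windows and a start is a single base, so these counts show no preference for gene bodies over starts. The stretch without any peak in any library was longest within the Hoxb3 span, over 11.8 kb that begin inside Hoxb4 (chr11:96320320-96332124). No shared region was found over 20.3 kb of the Hoxb3 span from the same point (chr11:96320320-96340571), where 5 of the 6 regions were held by a single library, or over 12.1 kb between Hoxb2 and Hoxb1 (chr11:96353713-96365853). Mir10a lay under no peak, and its nearest peak was 1123 and 824 bp away in the controls and 1096 and 1206 bp away in KO. Mir196a-1, the microRNA gene before Hoxb9, also lay under no peak, with its nearest peak at 588, 3305, 1189 and 570 bp in control 1, control 2, KO 1 and KO 2.

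The strongest and widest region of the cluster lay within the long Hoxb3 span, between Hoxb5 and Mir10a (chr11:96311196-96312298). Its percentile was 96.2 in control 1, 95.0 in control 2, 93.1 in KO 1 and 95.5 in KO 2, and its fold was 15.9, 14.4, 10.1 and 13.4 in the same order. The genotypes overlapped in percentile. Peaks covered 913 and 1082 bp of it in the controls and 605 and 793 bp in KO, so both KO libraries were narrower there.

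Next came a region in the body of Hoxb4, the gene known for HSC expansion (chr11:96318348-96319383). Its percentile was 90.6 and 92.6 in the controls and 96.0 and 92.2 in KO, and peaks covered 987, 850, 825 and 861 bp in control 1, control 2, KO 1 and KO 2. The genotypes overlapped in both measures. A second, weaker Hoxb4 region lay further into the gene (chr11:96319917-96320319), with percentiles of 64.9 and 57.6 in the controls and 57.1 and 33.2 in KO. There the KO libraries lay below both controls, with KO 1 close to control 2, and peaks covered 398 and 312 bp in the controls and 226 and 138 bp in KO.

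Hoxb8, which encodes a factor used to immortalize myeloid progenitors, had a strong, narrow region centred 390 bp before its span (chr11:96278865-96279156). Its percentile was 92.5 and 89.7 in the controls and 92.2 and 92.1 in KO, with folds of 13.0, 11.2, 11.7 and 10.9. The 4 libraries were close to each other there, and the genotypes overlapped. Toward the end of the Hoxb8 span, before Hoxb7, a wide region (chr11:96284123-96285003) had percentiles of 86.7, 85.0, 91.8 and 83.4 in control 1, control 2, KO 1 and KO 2. Its peaks covered 621 and 771 bp in the controls and 597 and 399 bp in KO.

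The Hoxb6 region of highest rank (chr11:96294312-96295186), which also lies within the antisense Hoxb5os, had percentiles of 88.4 and 89.4 in the controls and 92.3 and 88.6 in KO. The rank overlapped between genotypes, but peaks covered 874 and 785 bp in the controls against 397 and 427 bp in KO. Another Hoxb6 region near its start (chr11:96292836-96292964) had percentiles of 58.7, 9.79, 48.5 and 64.2 in control 1, control 2, KO 1 and KO 2. Control 2 stood apart from the other libraries there, as it did at the region in the Hoxb6 body before Hoxb5 (chr11:96299097-96299589), with 24.8 against 78.3 in control 1 and 68.1 and 65.6 in KO.

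Hoxb5, the long-term HSC marker, had its shared region centred 260 bp before the start (chr11:96303129-96303375), and it was among the 5 regions of highest rank. Its percentile was 85.4 and 87.2 in the controls and 88.6 and 88.9 in KO, and it covered 219 and 224 bp in the controls and 247 and 235 bp in KO. Both measures were higher in both KO libraries, by small amounts. When only summits whose −log10 q reached 5 were kept, the difference in percentile turned to -0.540 and the genotypes overlapped. With the 100000 strongest summits the difference was 7.34, without overlap. A weak merged region spanning the Hoxb5 start was held by control 2 (percentile 30.4) and KO 1 (percentile 40.0) only. The control 2 peak covered the start, and the KO 1 peak lay wholly inside the gene.

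At the retinoic acid responsive end, Hoxb2, which takes part in hindbrain patterning, held a wide region in its body (chr11:96352628-96353712). Its percentile was 80.2 and 77.7 in the controls and 72.3 and 79.98 in KO, with 849, 900, 735 and 850 bp covered. The Hoxb1 region just inside the gene (chr11:96365854-96366590) had percentiles of 74.5 and 73.0 in the controls and 76.9 and 76.5 in KO, and 655, 466, 476 and 380 bp covered. The KO libraries ranked above both controls there, while covered bases overlapped. Under the same q threshold the difference turned to -7.33 with overlap, and with the 100000 strongest summits it was 8.30 without overlap. A region over the Hoxb1 start was held by KO 1 only, at percentile 25.0. Far inside Hoxb3, a shared region (chr11:96340572-96341324) had percentiles of 79.8, 75.5, 80.5 and 77.6 in control 1, control 2, KO 1 and KO 2, and it was narrower in KO, with 698 and 753 bp in the controls and 587 and 443 bp in KO.

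The Hoxb9 end gave the largest differences in rank between the genotypes. A merged region spanning the Hoxb9 start (chr11:96271039-96271438) had percentiles of 59.2 and 68.1 in the controls and 9.85 and 18.9 in KO. Its folds were 3.42 and 4.70 against 2.21 and 2.55. Only the control 2 and KO 1 peaks reached the start itself. The control 1 and KO 2 peaks ended before it, at -0.104 and -0.143 kb from the start. The region beside it, inside the gene (chr11:96271551-96272008), went the other way, with percentiles of 59.0 and 68.0 in the controls and 78.5 and 77.4 in KO and folds of 3.39, 4.64, 5.60 and 5.31. In neither region did the percentiles overlap between genotypes, and the higher rank was in the controls in the first region and in KO in the second. Between Hoxb9 and Hoxb8 (chr11:96276917-96277225), percentiles were 67.5 and 64.9 in the controls and 46.6 and 14.5 in KO, lower in both KO libraries but far apart from each other. Upstream of Hoxb9 (chr11:96269895-96270286) the genotypes overlapped, at 65.5, 64.2, 72.2 and 63.2.

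**Figure D2:**
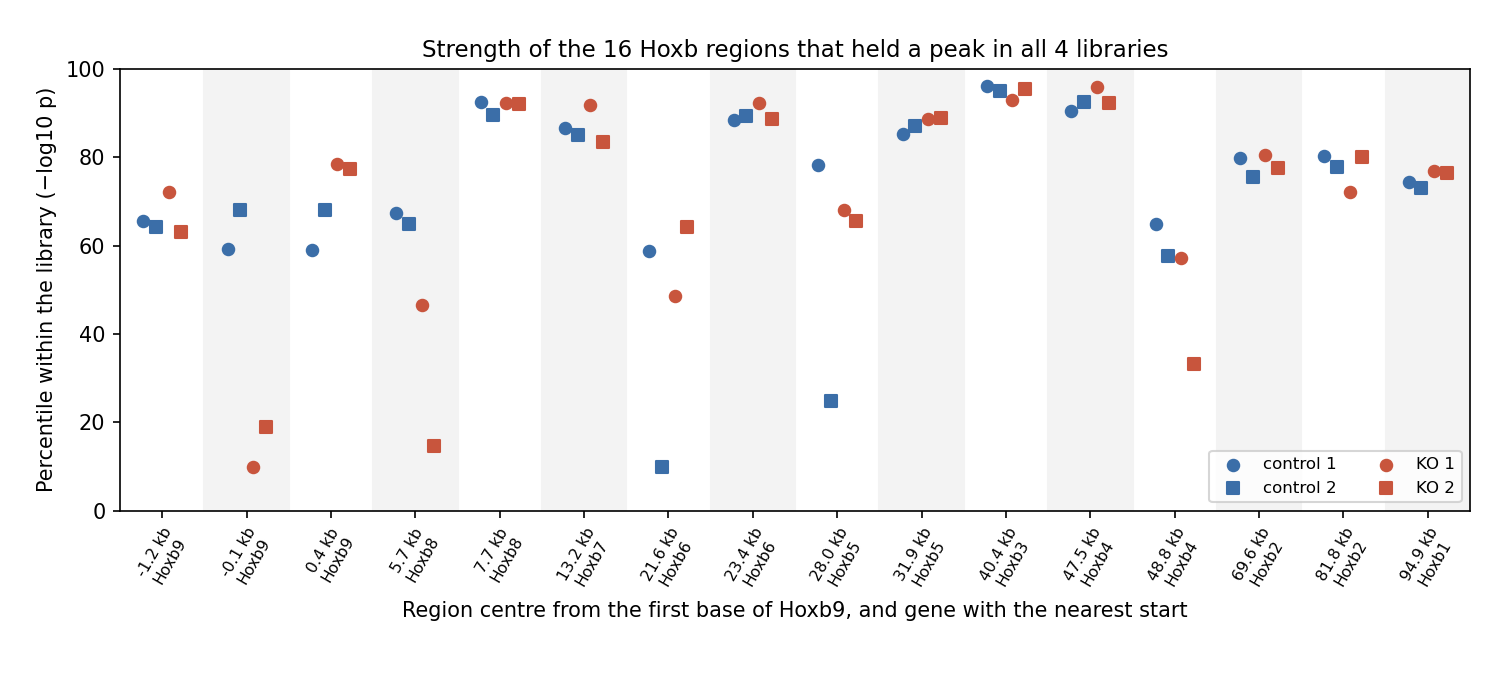
Percentile within the library by −log10 p (y axis) of the 16 shared Hoxb regions in order along the cluster (x axis, centre of the region in kb from the first base of Hoxb9 and the gene with the nearest start). Each point is 1 library, with controls in blue, KO in red, circles for replicate 1 and squares for replicate 2. In the merged region spanning the Hoxb9 start, the 2 KO points (9.85 and 18.9) lie far below the controls (59.2 and 68.1).

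Of the 16 shared regions, the percentile of both KO libraries was above both controls in 3, near Hoxb9, Hoxb5 and Hoxb1 (18.8%), beside 22% of the 80271 shared regions in the genome. It was below both controls in 3, in the region spanning the Hoxb9 start, between Hoxb9 and Hoxb8 and in Hoxb4 (18.8%), beside 15.4% in the genome. Both shares were near the background and say nothing particular about the cluster. The median of the differences in percentile, KO minus control, was 1.68 over the 16 regions and 0.307 over all shared regions. The absolute difference in percentile had a median of 2.54 between the 2 controls, 3.69 between the 2 KO libraries and 2.35 to 6.06 between a control and a KO library. Over all shared regions the medians were 4.47, 4.88 and 4.51 to 5.30. The median percentile of the shared Hoxb regions was 79.0 and 74.2 in the controls (mean 76.6 ± 3.39, SD, n = 2) and 77.7 and 77.5 in KO (mean 77.6 ± 0.102, SD, n = 2). The difference of 0.971 had p = 1 in an exact two-sided permutation test, whose smallest possible p with 2 against 2 libraries is 0.33, so no comparison of single values here could pass a 5% threshold.

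Regions held by 1 genotype were few and weak. A region in Hoxb9 (chr11:96272134-96272349) was held by both controls and neither KO library, with percentiles of 56.0 and 40.4. This was 1 of the 30 regions held by at least 2 libraries (3.33%), beside 6.05% in the genome. Regions held by both KO libraries and neither control lay in Hoxb7 (chr11:96286951-96287053), with percentiles of 25.8 and 46.0, and before Hoxb1 (chr11:96363795-96363885), with 24.8 and 35.5. These were 2 of 30 (6.67%), beside 3.47% in the genome. None of these 3 regions reached a −log10 q of 5 in any library, and counts this small cannot be told from the background.

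Peaks covered fewer bases of the cluster in KO. They covered 10.3 and 10.1 kb in the controls (mean 10.2 ± 0.138 kb, SD, n = 2) and 8.43 and 7.87 kb in KO (mean 8.15 ± 0.397 kb, SD, n = 2). Both KO libraries lay below both controls, by 2.09 kb between the means, with p = 0.33 in the exact two-sided permutation test, the smallest it can give. Control libraries had 59 and 56 summits in the windows (57.5 ± 2.12, SD, n = 2), and KO libraries had 58 and 50 (54.0 ± 5.66, SD, n = 2), which overlapped (exact permutation p = 0.667). Adjusted over these 2 values and the median percentile, 3 comparisons in all, the Benjamini-Hochberg p was 1 for each.

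Covered bases in KO came to 0.796 of the control mean in the Hoxb windows and to 0.854 over the whole genome. Set against each library's own peak total, the cluster held 195 and 207 bp per Mb of peaks in the controls and 198 and 177 bp per Mb in KO, and the genotypes overlapped. The shared regions held most of the covered bases, 7.96 and 7.71 kb in the controls and 6.45 and 6.21 kb in KO. Their peaks were in 22 and 20 pieces in KO and 18 and 17 in the controls, or 1.38 and 1.25 per region against 1.12 and 1.06. Over all shared regions of the genome the values were 1.34 and 1.14 in KO against 1.08 and 1.11, so KO had more pieces there too.

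**Figure D3:**
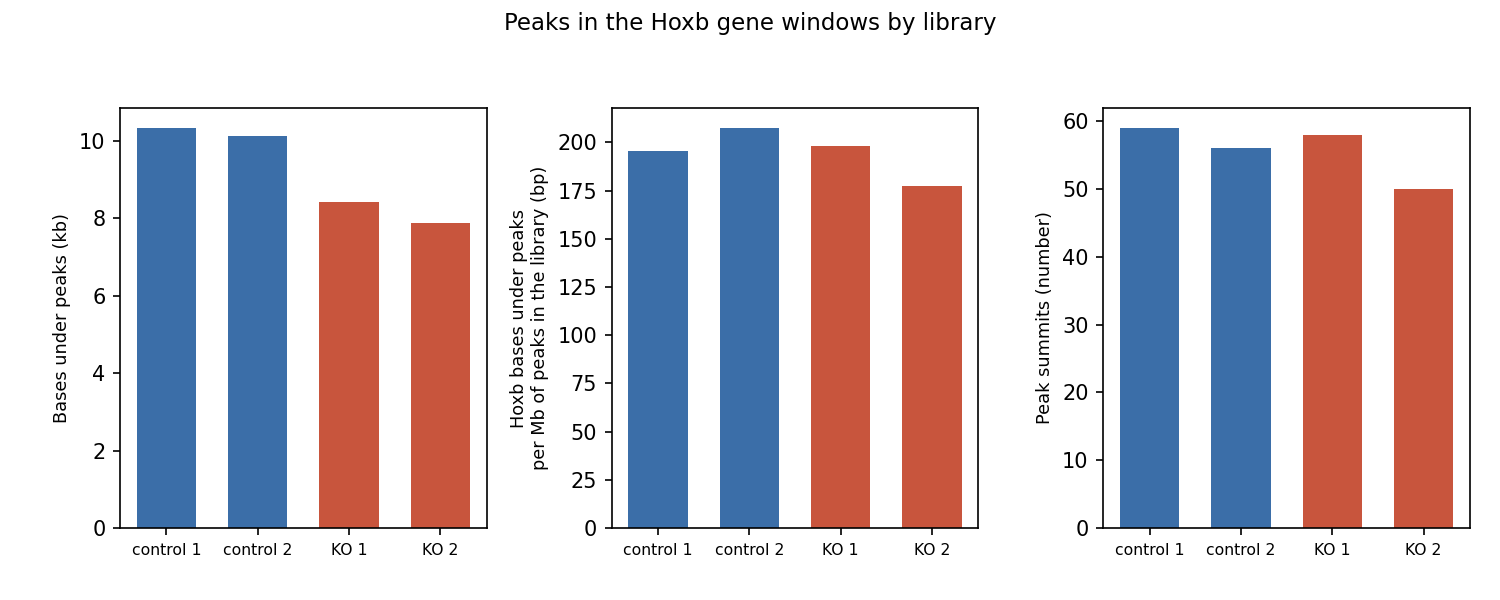
Bases under peaks in kb, the same per Mb of peaks in the library, and the number of summits in the Hoxb windows, with 1 bar per library (controls blue, KO red). Covered bases separate the genotypes (10.3 and 10.1 against 8.43 and 7.87 kb), whereas the values per Mb of peaks (195, 207, 198 and 177) and the summits (59, 56, 58 and 50) overlap.

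Region by region, a comparison of covered bases chosen after the values were seen, both KO libraries were narrower than both controls in 5 of the 16 shared regions (31.2%), beside 35.8% in the genome. These were the wide regions in Hoxb8, Hoxb6 and Hoxb3 (2 regions) and the weaker Hoxb4 region described above. Both KO libraries were wider in 2 (12.5%), before Hoxb5 and at the Hoxb6 start, beside 6.85% in the genome. Narrower peaks in KO were thus about as frequent in the cluster as elsewhere.

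By gene, with 5000 bp on each side, peaks covered more of the typical Hoxb window than of the typical gene, with the exception of Hoxb1 in control 2, which lay just under the median of all genes. The median over the 9 genes was 9.50% and 9.71% in the controls and 8.28% and 6.99% in KO, beside 4.73%, 4.40%, 3.80% and 3.95% over 21627 protein-coding genes. The compared genes were not matched for length, which sets how much of a window is flank. Of the 21627 genes, 18822 had a peak in any library. Whether gene length accounts for the higher Hoxb shares was not tested. The windows of neighbours overlap, so the Hoxb genes are not independent of each other. Hoxb7 was highest in control 1, with 14.7% in control 1, 12.4% in control 2, 9.78% in KO 1 and 8.51% in KO 2. Hoxb4 followed in that library, with 12.7%, 9.71%, 9.15% and 7.47% in the same order of libraries. Hoxb6 had 11.3%, 11.5%, 7.59% and 6.64%. In these 3 genes both KO libraries lay below both controls.

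The same held for 4 more genes by smaller steps. Hoxb8 had 9.22% and 9.58% in the controls and 8.28% and 6.99% in KO, and Hoxb5 had 7.80% and 9.18% against 6.53% and 5.51%. Hoxb3 had 8.63% and 9.39% against 7.29% and 6.50%. Hoxb2 had 10.3% and 12.0% against 9.93% and 9.44%. At the 2 ends of the cluster the genotypes overlapped, with 9.50%, 10.9%, 9.54% and 9.53% for Hoxb9 and 8.22%, 4.34%, 6.10% and 4.79% for Hoxb1, the gene with the least coverage in every library but control 1. In order of the control mean the genes were Hoxb7, Hoxb6, Hoxb4, Hoxb2, Hoxb9, Hoxb8, Hoxb3, Hoxb5 and Hoxb1, and neighbours in this order overlapped in their control values, except that both Hoxb7 values exceeded both Hoxb6 values.

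**Figure D4:**
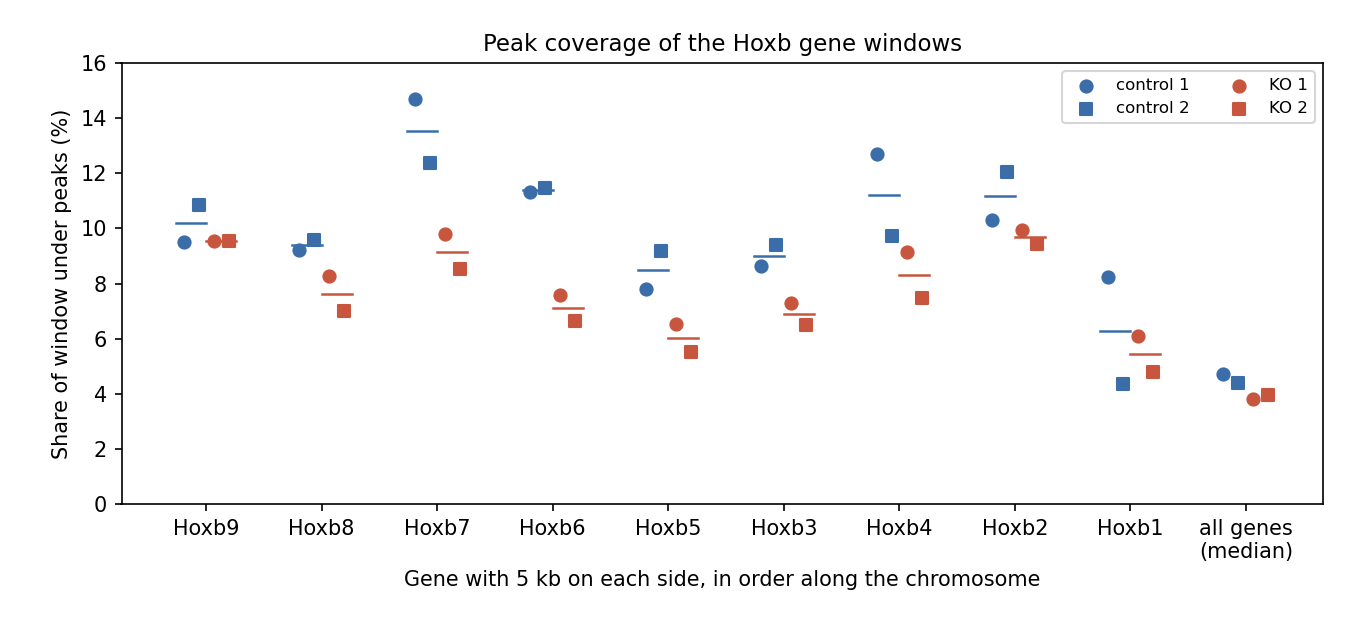
Share of each gene window under peaks in % (y axis) for the 9 Hoxb genes in order of the first base of their spans, with the median over 21627 protein-coding genes at the right. Points are libraries (controls blue, KO red, circles replicate 1, squares replicate 2) and short lines are genotype means, and the red points lie below the blue ones in 7 genes, with overlap at Hoxb9 and Hoxb1.

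In all, 7 of the 9 genes had a covered share in both KO libraries below both controls (77.8%), beside 47.6% of the 18822 genes with a peak, and 0 had it above, beside 4.66%. This count, too, was chosen after the values were seen. With each share divided by the library's total of bases under peaks, 2 genes were lower in both KO libraries, Hoxb7 and Hoxb6, beside 16.6% of genes, and 0 were higher, beside 20.7%. Most of the 7 orders were therefore no longer seen once the smaller peak total of the KO libraries was taken into account.

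Outside the cluster's peaks, Hoxb13, which lies apart from the other Hoxb genes on the same chromosome, was covered less than every member other than Hoxb1 in each library, with 3.55% and 5.67% in the controls and 4.74% and 4.97% in KO, and held no region shared by all 4 libraries. Skap1, the large gene beyond Hoxb1 that encodes a T cell adaptor, had 74 regions in its 305 kb window, 19 of them in all 4 libraries. By Euclidean distance between the 4 covered shares and the Hoxb medians, the genes most alike among 21627 were Ggt1, Ssc4d and Tbc1d2b, at distances of 0.287, 0.377 and 0.379 percentage points.

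Among the other Hox clusters, which share their origin with Hoxb, covered shares were of the same order. Peaks covered 7.48 to 9.83% of the Hoxb windows over the 4 libraries, 8.65 to 11.8% of the Hoxa windows, 7.05 to 7.79% of the Hoxc windows and 7.73 to 9.24% of the Hoxd windows. The ratio of KO to control was 0.796 in Hoxb, 0.782 in Hoxa, 0.936 in Hoxc and 0.949 in Hoxd. The covered share of both KO libraries was below both controls in 7 of 9 Hoxb genes (77.8%) and 7 of 11 Hoxa genes (63.6%). In Hoxc and in Hoxd this held for 2 of 9 genes (22.2%), beside 47.6% of all genes with a peak. Regions held by all 4 libraries were 16 of 30 in Hoxb, 19 of 33 in Hoxa, 15 of 33 in Hoxc and 17 of 31 in Hoxd, with median percentiles of 76.4, 84.4, 55.0 and 62.5. Of these shared regions, both KO libraries ranked above both controls in 18.8% in Hoxb, 26.3% in Hoxa, 26.7% in Hoxc and 41.2% in Hoxd, beside 22% in the genome. They ranked below in 18.8% in Hoxb (3 regions) and 0 regions in each of the others, beside 15.4% in the genome. No difference between clusters was tested, and the counts are small.

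The 25 genes listed as Hox cofactors and regulators, such as the cofactor Meis1, the activator Kmt2a and the Polycomb genes Bmi1 and Ezh2, held 219 regions in at least 2 libraries. Of these, 119 were in all 4 libraries, 18 (8.22%) only in control and 10 (4.57%) only in KO, beside 6.05% and 3.47% in the genome. The percentile of both KO libraries was above both controls in 26 of the 119 (21.8%) and below in 17 (14.3%), beside 22% and 15.4% in the genome, so these counts were near the background. The covered share of both KO libraries was below both controls in 12 of the 25 genes (48%), beside 47.6% of all genes, and above in 1 (Psip1). Among the genes with the lower share, Kmt2a, which maintains Hox expression, had a covered share of 5.25% and 5.41% in the controls and 4.37% and 4.39% in KO, and Meis1, a partner of Hox proteins in HSCs, had 7.80% and 8.05% against 5.60% and 6.38%. In Psip1 the shares were 3.07% and 3.03% against 3.25% and 3.36%, and in Ezh2 the genotypes overlapped, with 4.76% and 3.58% against 3.65% and 3.00%. The shares of these genes are not divided by each library's total of bases under peaks, which was smaller in both KO libraries.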

How the data were processed

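ATAC-Seq peaks were analyzed in 2 control and 2 Cpt1a-KO libraries. Per the labels, the submitters' notes name Bowtie2, MACS2 and mm10, and versions are not given in the sources used here. The authors called peaks on each library and deposited, per summit, a fold (the ratio of signal to the background of the same library), a −log10 p and a −log10 q. No read counts were used, so the depth and the precision it gives are unknown, and the study's DiffBind and edgeR comparison, which needs reads, could not be repeated.

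Rows with the same interval were joined, intervals of the autosomes and X overlapping by at least 1 bp were merged (Python 3.11.15, numpy 2.4.6, pandas 2.3.3, scipy 1.17.1), and the steps were tested on simulated data. Regions held by at least 2 libraries were compared between genotypes. Totals were compared by exact two-sided permutation tests with Benjamini-Hochberg adjustment. Named were all 9 genes, regions at a start, the 5 widest and 5 strongest, those held by 1 genotype or with percentiles not overlapping, and the neighbouring genes. The Hoxb6 body region where control 2 stood apart, the Hoxb9 upstream region, the far Hoxb3 region and the 4 cofactors with values were named after their values were seen. Members and lists were chosen with earlier results of these data known. Alternatives were a −log10 q of at least 5, the 100000 strongest summits, lists of equal length, flanks of 1000 or 0 bp, a covered share of 0.5, other ranks, a replicate block and each library left out.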

Additional observations from a re-analysis of the deposited data

How the results depend on the processing

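The difference in covered kb kept its direction in every alternative run, from -2.30 to -1.75, and from -2.37 to -1.81 with a library left out. The other values were less stable. Keeping only summits whose −log10 q reached 5 left 2 Hoxb regions held by the controls alone and 0 by the KO libraries alone, and both counts were 0 with the 100000 strongest summits. Requiring a covered share of 0.5 gave 2 only in control, and flanks of 1000 bp or none gave 1 only in KO. With a library left out, regions only in control ranged from 2 to 11 and only in KO from 2 to 12. These ranges are widened by the definition, since a genotype left with a single library counts every region held by that library alone. The summit difference ranged from -7.5 to 0.5, and its sign turned without KO 2 (0.5). The difference in median percentile ranged from -0.608 (without control 2) to 3.37 with a library left out. Under the other alternatives it ranged from -0.711, when ranked among the shared regions alone, to 9.87 with the 100000 strongest summits. It was 3.23 with lists of equal length, 2.41 when ranked by fold and 1.82 under the q threshold. In the settings that gave 9.87, 3.23 and 2.41, the exact permutation p was the smallest it can give. Causes were not tested.

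Under the same q threshold, the percentile differences near Hoxb5 and Hoxb1 turned to -0.540 and -7.33, and the genotypes overlapped. The merged region spanning the Hoxb9 start was not held by all 4 libraries at that threshold, with the 100000 strongest summits or with lists of equal length. The other Hoxb9 region, the one before Hoxb8 and the weaker Hoxb4 region were not held by all 4 under the first 2 of these settings. The number of genes covered less in both KO libraries was 7, or 6 with either the threshold or equal lists, 4 with the 100000 strongest summits and 2 per Mb of peaks. No genome share is given for the counts of 6 and 4. The settings for single regions and genes were chosen after seeing the data.

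Replicate numbers marked no shared animal or batch in the labels. The correlation of same-numbered deviations was 0.00628 over 80271 shared regions. With the replicate block, the covered kb (-2.09) had an exact permutation p of 0.5, the summits (-3.5) 0.5 and the median percentile (0.971) 1, and 0.5 is the smallest this pairing can give. The p-values come from reassigning the genotype labels among these libraries and hold for these libraries only.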
